A study of Mus musculus with 12 samples.

Results

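The interferon-stimulated genes described here are 39 genes that cells switch on when they sense interferon. They were taken by symbol from the table of gene counts for thoracic aorta, where every one of the 39 had a row among 25284 genes. All 12 mice were male, lacked apolipoprotein E (apoe-/-) throughout the body, ate a high fat diet and were 18 weeks old. In both groups osmotic minipumps had delivered their content for 8 weeks. The 6 AZ6983 mice (A1 to A6) received AZ6983, an agonist of the alpha 7 nicotinic acetylcholine receptor (α7nAChR), at 50 µmol per kg per day, and the 6 controls (C1 to C6) received vehicle. Since both groups lack apolipoprotein E and eat the same diet, the comparison is of AZ6983 against vehicle in atherosclerosis-prone mice, and no mice without the disease model were measured. Total RNA of the whole thoracic aorta was sequenced, so each value is a mixture of all cells of the vessel and of what adhered to it.

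Interferons are secreted proteins that warn cells of viruses and other danger. Type I interferons bind the receptor made of Ifnar1 and Ifnar2, whose kinases Jak1 and Tyk2 phosphorylate transcription factors such as Stat2. With Irf9 these form a complex that binds the interferon-stimulated response element (ISRE) in promoters, while interferon gamma acts mainly through another element, GAS. The genes so induced encode sensors of foreign nucleic acid, proteins that block translation or entry of viruses, ubiquitin-like modifiers and GTPases that attack the vacuoles of pathogens. In atherosclerotic vessels macrophages, endothelial cells and smooth muscle cells can all express such genes.

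The libraries held 23810036 to 35864666 counts on genes. Markers of the labelled tissue were present in every mouse: the summed counts-per-million values (CPM, scaled by TMM) of 6 smooth muscle genes ranged from 10224 to 17612, those of 6 endothelial genes from 968 to 1276 and those of 12 macrophage genes from 822 to 1550. White fat markers (2504 to 6126) and brown fat markers (2338 to 5675) were also present in every mouse. Among the libraries A4 and A5 stood apart. In A4 12 T cell and thymocyte genes summed to 1171 CPM, and in the other mice to 47.6 to 106. A5 had the lowest smooth muscle sum (10224, the others at least 13197), the highest brown fat sum (5675, the others at most 4426) and a TMM factor of 0.837 (the others 0.987 to 1.07). The share of reads assigned to no gene (the unassigned share) was 8.02% to 12.7% over the control libraries and 11.2% to 14.9% over the AZ6983 libraries. The labels name no batch, but the columns end in a library number (1 to 12) that no source explains, and 5 controls hold 3 to 7.

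All 39 genes passed the filter on low counts, and their mean counts per mouse ran from 45.0 for Oasl1 to 3829 for Ifi27l2a. Between genes, levels were compared as mean CPM per kilobase of annotated exon (GENCODE M21). On this scale 3 genes stood above 100: Ifi27l2a at 294, Ifitm2 at 181 and Ifitm3 at 131. Bst2, which tethers budding virus to the cell surface, came next at 29.8 and the GTPase Gbp2 at 19.1. Of the IFIT genes, Ifit3 (8.90) and Ifit2 (8.17) ranked 32 and 31 of the 39 from the lowest. Ifit1 (4.47) lay in the middle, beside Isg15 at 4.41, and Ifit3b was lower at 2.33. Another 6 genes were below 1, with Oas3 (0.368), Mx1 (0.460) and Oasl1 (0.614) at the bottom.

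Many of the genes sit side by side as families. Ifit2, Ifit3, Ifit3b and Ifit1 span 99.3 kb of chromosome 19 (chr19:34550694-34650009, mm10), the 3 Ifitm genes 55.9 kb of chromosome 7 (chr7:140954837-141010770), and Mx1 and Mx2 114 kb of chromosome 16 (chr16:97447035-97560900). The annotation calls Mx2 a polymorphic pseudogene and the other 38 genes protein-coding. Rsad2 and Cmpk2 lie next to each other within 37.1 kb of chromosome 12 (chr12:26442746-26479837). Relatedness also limits what a count can say. Of all 75-base windows of Ifit3 exons, 41.1% were found in another gene as well, each of them in Ifit3b, and for Ifit3b the share was 35.7%. The shares were 47.6% for Oas1a (with Oas1g), 42.0% for Ifitm2 (mostly with the overlapping model Gm45717), 11.3% for Gbp7 and 5.19% for Ifit1. Values of Ifit3, Ifit3b, Oas1a and Ifitm2 are therefore uncertain, because reads from such stretches cannot be placed on 1 gene.

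Promoters of many, but not all, of these genes carry the letters of such an element. RefSeq promoter windows (GRCm38.p6, 250 bases before to 50 after a gene's start) were at hand for 29 of the 39 genes. The core of the ISRE, GAAANNGAAA on either strand with overlapping matches allowed, occurred in windows of 19 of the 29 genes (65.5%), against 3.99% of all 27025 genes and 3.44% of all 32851 windows. The GAS letters, TTCNNNGAA, which read the same on both strands, occurred in 7 of the 29 (24.1%), against 9.55% of all genes and 8.30% of all windows. The stretches below, 5′ to 3′ on the strand of each gene, are examples picked from genes whose window held an ISRE core. Capitals mark the ISRE core, and in Igtp also the GAS letters.

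Ifit3 (chr19:34583353-34583436, plus strand): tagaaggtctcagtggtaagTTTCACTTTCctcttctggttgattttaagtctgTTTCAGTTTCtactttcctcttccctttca
Ifit3b (chr19:34607749-34607832, plus strand): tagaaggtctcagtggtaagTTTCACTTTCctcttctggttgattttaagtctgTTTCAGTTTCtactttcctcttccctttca
Ifit1 (chr19:34640765-34640833, plus strand): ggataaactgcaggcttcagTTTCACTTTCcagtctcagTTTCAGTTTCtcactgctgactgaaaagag
Isg15 (chr4:156200855-156200916, minus strand): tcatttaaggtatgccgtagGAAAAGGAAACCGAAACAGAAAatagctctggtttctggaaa
Igtp (chr11:58199491-58199551, plus strand): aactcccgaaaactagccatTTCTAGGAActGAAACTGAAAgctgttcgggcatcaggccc
Rsad2 (chr12:26456543-26456592, minus strand): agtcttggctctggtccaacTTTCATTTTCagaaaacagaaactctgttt

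The stretches of Ifit3 and Ifit3b were equal at 84 of 84 bases, each with 2 ISRE cores. Set side by side at the best shift, their whole windows were equal at 201 of 268 bases (75%). The cores began 156 and 122 bases before the start of Ifit3 and 188 and 154 bases before that of Ifit3b. The cores of Ifit1 began 104 and 85 bases before its start, and 3 overlapping cores began 78, 72 and 66 bases before that of Isg15. The windows of Ifit2, Cmpk2, Irf7, Irf9, Oasl2 and Ifitm1 held no such match.

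Whether AZ6983 altered the interferon-stimulated genes was asked gene by gene with edgeR's quasi-likelihood test, fitted on 15857 genes. No gene passed 10% FDR in that fit (0% of genes tested, 1616 genes at an unadjusted p under 0.05), and so none of the 39 did. The smallest adjusted p among them was 0.450, shared by Ifit3, Ifit3b and Ifitm1. DESeq2 on the whole table called 92 of 17592 genes (0.523%) at 10% FDR, and again none of the 39. At an unadjusted p under 0.05, 7 of the 39 genes (17.9%) were lower in AZ6983 mice, where 2.81% of all genes tested were. These were Ifit1, Ifit2, Ifit3, Ifit3b, Mx1, Cmpk2 and Irf9. One gene, Ifitm1, was higher at that level, where 7.38% of all genes were. The log2 fold change was below 0 for 29 of the 39 genes and their median was -0.11, beside 0.01 over all genes tested. In none of the 39 were the CPM of the 2 groups free of overlap, a state that 0.410% of all genes reached.

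The number of lower genes rested on few mice. It was 2 (Ifit3 and Ifit3b) without C3, 14 without C4, 4 without C5, A1 or A3, and 3 without A6. With a covariate for the unassigned share it was 4, and these were Mx1, Xaf1, Bst2 and Gbp3, while the single higher gene was Rsad2. Without C6, Irf1 was also higher at that level. Ifit3, Ifit3b and Ifitm1 were at an unadjusted p under 0.05 in every one of the 12 fits that left out 1 mouse, Cmpk2 in 11, Ifit2 in 10, Mx1 in 6 and Ifit1 and Irf9 in 4 each.

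**Figure D1:**
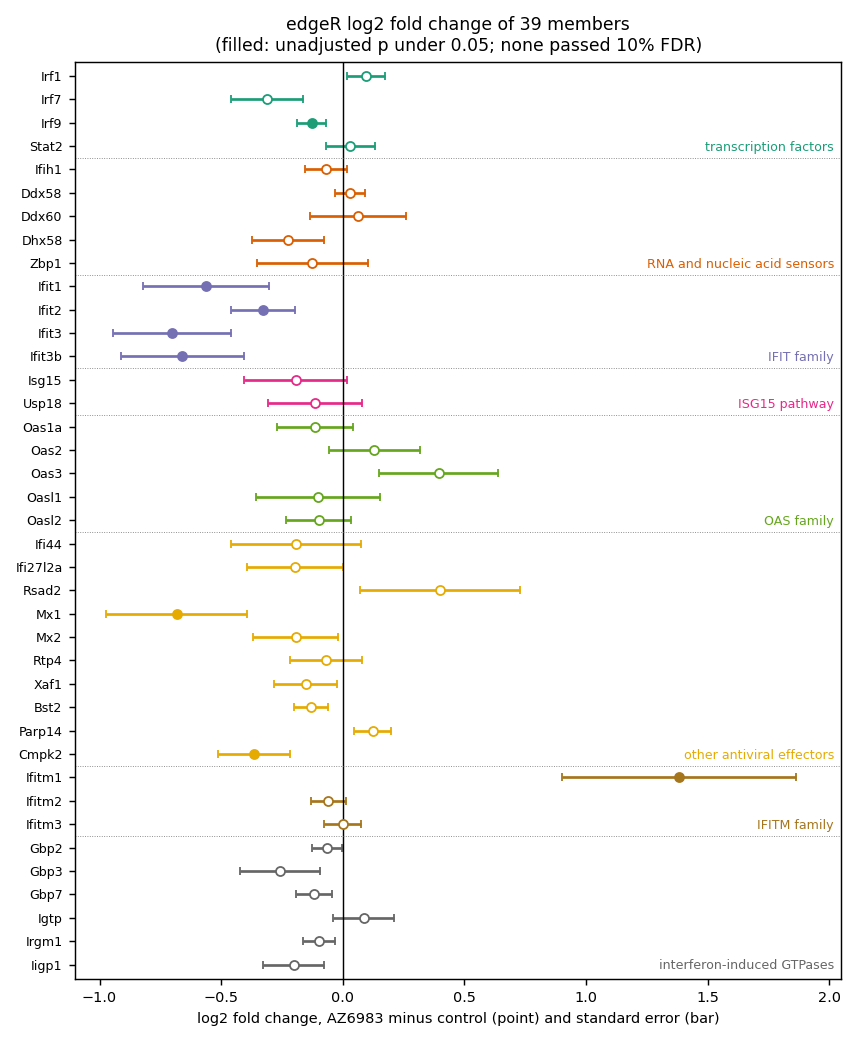
Log2 fold change of each of the 39 interferon-stimulated genes (x axis, AZ6983 minus control, edgeR) by role, with 1 standard error as bars and 6 mice per group. Filled points mark an unadjusted p under 0.05: the 4 IFIT genes, Mx1, Cmpk2 and Irf9 lie left of 0 and Ifitm1 lies right of it, at 1.38.

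The 4 IFIT genes encode proteins that bind viral RNA, in part by recognising its cap, and stop its translation. All of them were at an unadjusted p under 0.05, with a median log2 fold change of -0.61. Ifit3 was 12.5, 17.3, 34.2, 10.8, 23.7 and 17.0 CPM in C1 to C6 and 14.0, 11.5, 12.9, 12.9, 10.9 and 8.72 CPM in A1 to A6. The controls were widely spread, with C3 and C5 high, while every AZ6983 mouse lay at or below 14.0, which 4 controls exceeded. The means were 19.2 ± 8.57 (SD, n = 6) and 11.8 ± 1.88 (SD, n = 6), and the log2 fold change was -0.70 ± 0.244 (SE, edgeR p = 0.0131, adjusted p = 0.450, two-sided exact permutation p = 0.0411).

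Ifit3b, the near copy of Ifit3, was 3.91, 4.78, 10.6, 3.53, 6.52 and 4.97 CPM in controls and 3.27, 3.34, 5.10, 3.57, 3.43 and 3.02 CPM in AZ6983 mice. Here 4 of the AZ6983 mice lay below the lowest control, and A3 and A4 lay within the range of the controls. The log2 fold change was -0.66 ± 0.252 (SE, edgeR adjusted p = 0.450, two-sided exact permutation p = 0.0325), and without C3 it was -0.40. Reads that fit both genes equally well were set aside in counting, so these values rest on the stretches in which the genes differ.

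Ifit1 was 9.66, 12.8, 26.3, 6.99, 17.6 and 11.6 CPM in controls and 8.09, 11.1, 9.68, 10.7, 9.32 and 8.61 CPM in AZ6983 mice. The AZ6983 mice lay within a narrow band inside the range of the controls, of which C3 and C5 were again the highest and C4 the lowest. The log2 fold change was -0.56 ± 0.259 (SE, edgeR p = 0.0489, adjusted p = 0.487), the exact permutation test gave p = 0.158 (two-sided), and without C3 the log2 fold change was -0.30. Ifit2 stood higher, at 35.8, 28.1, 43.2, 31.0, 38.8 and 37.4 CPM in controls and 35.9, 24.9, 32.1, 30.4, 21.8 and 25.8 CPM in AZ6983 mice. For Ifit2, 3 controls exceeded every AZ6983 mouse and 3 AZ6983 mice were below every control, and the log2 fold change was -0.33 ± 0.130 (SE, edgeR adjusted p = 0.456, two-sided exact permutation p = 0.0455). With a covariate for the unassigned share the log2 fold change of Ifit2 was -0.08, that of Ifit3 -0.68, that of Ifit3b -0.63 and that of Ifit1 -0.77.

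**Figure D2:**
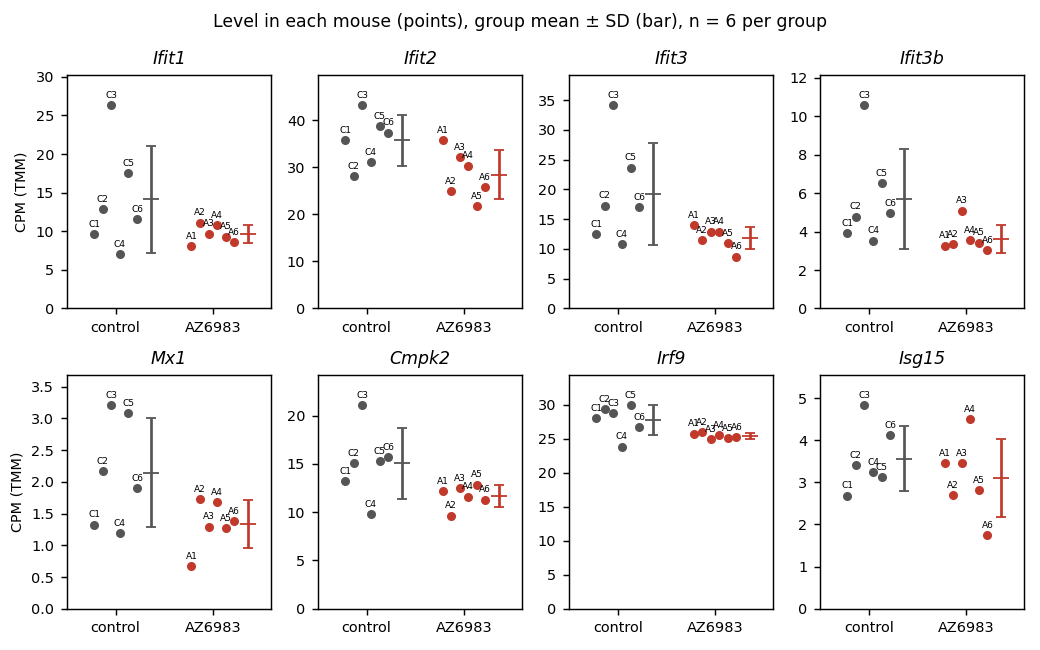
CPM (y axis, from 0) of 8 interferon-stimulated genes in each control (grey) and each AZ6983 mouse (red), with the group mean and SD as a bar (n = 6 per group). For Ifit1, Ifit3, Ifit3b, Mx1 and Cmpk2 control C3 is the highest of the 12 mice, and the AZ6983 mice lie closer together than the controls.

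The 10 other antiviral effectors act at many steps of infection, and 2 of them, Mx1 and Cmpk2, were lower at an unadjusted p under 0.05. Mx1 was 1.32, 2.17, 3.21, 1.19, 3.09 and 1.90 CPM in controls and 0.668, 1.73, 1.29, 1.68, 1.27 and 1.38 CPM in AZ6983 mice. Only RNA was measured, and whether these mice make a working Mx1 protein was not tested. C3 and C5 were the highest and A1 the lowest, on 18 to 93 counts per mouse, and 4 controls exceeded every AZ6983 mouse. The log2 fold change was -0.68 ± 0.290 (SE, edgeR adjusted p = 0.472, two-sided exact permutation p = 0.0714), and it was -1.21 with a covariate for the unassigned share. Cmpk2, a mitochondrial nucleotide kinase, was 13.2, 15.1, 21.1, 9.82, 15.3 and 15.7 CPM in controls and 12.2, 9.64, 12.5, 11.6, 12.9 and 11.3 CPM in AZ6983 mice. All controls but C4 exceeded every AZ6983 mouse, and the difference on the log2 scale was -0.37 ± 0.146 (SE, edgeR adjusted p = 0.460, two-sided exact permutation p = 0.0541).

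Rsad2 (viperin), which makes a nucleotide that ends viral RNA chains, lies next to Cmpk2 on chromosome 12 but followed another course. It is singled out here after its values were seen. Rsad2 was 37.1, 20.1, 28.7, 42.3, 29.5 and 19.7 CPM in controls and 55.0, 19.7, 57.3, 59.3, 21.2 and 21.1 CPM in AZ6983 mice. A1, A3 and A4 exceeded every control, and the other 3 AZ6983 mice were among the lowest of the 12. Its log2 fold change was 0.40 ± 0.329 (SE, edgeR p = 0.247, adjusted p = 0.658, two-sided exact permutation p = 0.437), and it ran from 0.23 to 0.53 over the fits without 1 mouse. Among 12947 candidates the genes whose log2 CPM followed Rsad2 most closely over the 12 mice included Bpgm (r = 0.937), Mkrn1 (0.932), Isg20 (0.912) and Ube2l6 (0.909). Isg20 is an interferon-induced gene that is also in the pathway lists below. Bpgm makes the molecule that loosens oxygen from haemoglobin in red cells. A list of 12 erythroid genes, written after this was seen, summed to 637 to 3540 CPM in controls and 535 to 5469 CPM in AZ6983 mice, and none of the 12 was at 0 in any mouse. The 5 mice with the highest sums, A1, A3, C4, A4 and C1, were also the 5 with the most Rsad2. The part of red cell RNA in the values of Rsad2 was not tested.

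Ifi27l2a, which encodes a small hydrophobic protein, was the highest of all 39 per kilobase. It was 129, 245, 108, 162, 120 and 108 CPM in controls and 121, 104, 129, 173, 118 and 116 CPM in AZ6983 mice. C2 stood above the rest, and A4 and C4 came next. The log2 fold change was -0.20 ± 0.198 (SE, edgeR adjusted p = 0.719, two-sided exact permutation p = 0.550), and it was -0.0042 without C2, -0.31 without A4 and -0.38 with the covariate. In C2 the summed CPM of 6 B cell genes was 37.7, against 3.68 to 16.2 in the other mice. A4 and C4 had sums of 11.5 and 3.68, and A1 and C6, with less Ifi27l2a, had 16.2 and 15.2. Of 12947 candidates those most like Ifi27l2a over the 12 mice were Cdc5l (r = 0.857), Atxn7l2 (0.826) and Bud13 (0.817). The part of B cell RNA in the values of Ifi27l2a was not tested. Of the remaining effectors Bst2 was 28.2 ± 2.20 CPM among controls (SD, n = 6) against 25.7 ± 2.03 CPM among AZ6983 mice (SD, n = 6) (edgeR adjusted p = 0.526), and Ifi44, Mx2, Rtp4, Xaf1 and Parp14 had log2 fold changes of -0.19, -0.19, -0.07, -0.15 and 0.12.

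The 3 IFITM genes encode small membrane proteins that keep enveloped viruses from fusing with the cell. Ifitm1 was the only gene of the 39 that was higher at an unadjusted p under 0.05. It was 1.08, 1.54, 2.0, 3.35, 0.693 and 0.850 CPM in controls and 2.75, 1.69, 5.88, 5.64, 1.39 and 7.46 CPM in AZ6983 mice, on 20 to 212 counts per mouse. A3, A4 and A6 exceeded every control, while A1, A2 and A5 lay among the controls. Its log2 fold change was 1.38 ± 0.481 (SE, edgeR p = 0.0131, adjusted p = 0.450, two-sided exact permutation p = 0.0411).

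Ifitm1 moved with genes of neutrophils, the granulocytes of the blood. Of 12947 candidates those most like it were Retnlg (r = 0.949), Cxcr2 (0.940), S100a9 (0.935), Mmp8 (0.932) and Csf3r (0.927), all known from neutrophils. With S100a9, a subunit of calprotectin, Spearman's rho was 0.895, r was 0.877 without A3 and A6, 0.835 among the 6 controls and 0.941 among the 6 AZ6983 mice. These correlations describe 12 libraries that share their preparation, and they carry no test. The 10 neutrophil markers summed to 52.4, 62.7, 56.1, 74.6, 30.6 and 41.6 CPM in C1 to C6 and to 105, 44.8, 191, 128, 65.9 and 275 CPM in A1 to A6. Of 9 such markers tested, 8 (88.9%) were higher in AZ6983 mice at an unadjusted p under 0.05, where 7.38% of all genes tested were. The defining marker Ly6g had 0 to 27 counts per mouse. In bulk tissue more cells of a type and more RNA per cell cannot be told apart, and the part of neutrophils in the values of Ifitm1 was not tested.

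**Figure D3:**
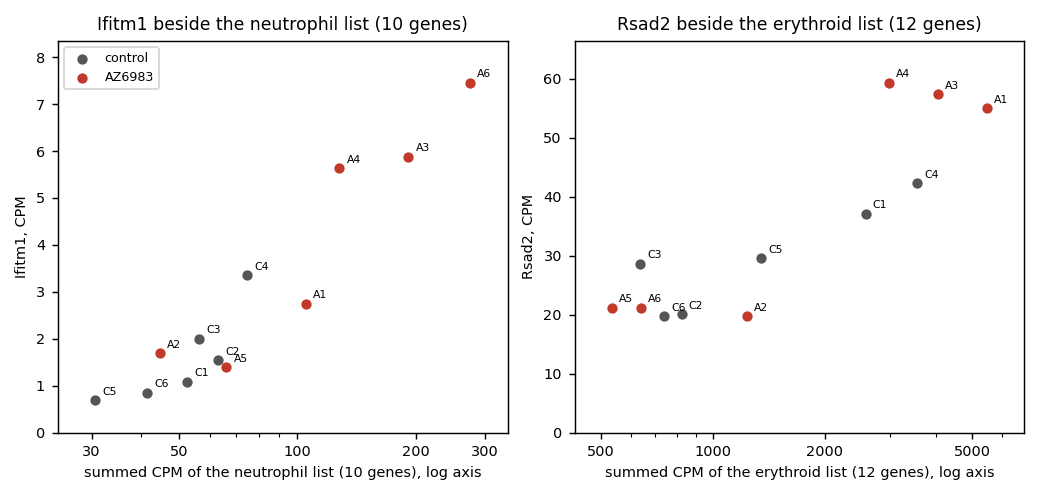
Left, CPM of Ifitm1 (y axis) against the summed CPM of 10 neutrophil genes (x axis, log scale). Right, CPM of Rsad2 against that of 12 erythroid genes. Each point is 1 of 12 mice (grey for controls, red for AZ6983). Ifitm1 is highest in A6, which also has the highest neutrophil sum (275). Rsad2 is highest in A1, A3 and A4, at erythroid sums of 5469, 4026 and 2978. C4, at a sum of 3540, has 42.3 CPM of Rsad2.

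Ifitm2 and Ifitm3 were far more abundant and more even. Ifitm2 was 125, 110, 115, 133, 121 and 122 CPM in controls and 124, 115, 133, 116, 98.1 and 111 CPM in AZ6983 mice, and its log2 fold change was -0.06 ± 0.0722 (SE, edgeR adjusted p = 0.777, two-sided exact permutation p = 0.411), or 0.05 with a covariate for the unassigned share. Ifitm3 was 88.9 ± 3.08 CPM among controls (SD, n = 6) against 88.9 ± 10.9 CPM among AZ6983 mice (SD, n = 6). A5 was the lowest mouse for both genes.

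The transcription factors of the set drive the response itself. Irf9 was 28.0, 29.4, 28.8, 23.8, 29.9 and 26.7 CPM in controls and 25.8, 25.9, 24.9, 25.6, 25.1 and 25.2 CPM in AZ6983 mice. All controls but C4 exceeded every AZ6983 mouse, and the difference was small, with a log2 fold change of -0.13 ± 0.0585 (SE, edgeR p = 0.0474, adjusted p = 0.487, two-sided exact permutation p = 0.0433). Irf7, which amplifies the interferon response once it is induced, was 10.1, 12.6, 14.7, 7.66, 12 and 12.2 CPM in controls and 8.17, 8.16, 8.98, 11.4, 10.6 and 8.46 CPM in AZ6983 mice. Of the controls 4 exceeded every AZ6983 mouse and C4 was below all of them, and the log2 fold change was -0.31 ± 0.146 (SE, edgeR p = 0.0532, adjusted p = 0.497, two-sided exact permutation p = 0.0952). Stat2, the partner of Irf9, was 19.5, 23.9, 26.7, 18.7, 22.4 and 20.8 CPM in controls and 17.6, 24.6, 23.8, 23.8, 22.7 and 22.3 CPM in AZ6983 mice. The groups overlapped almost entirely, with a log2 fold change of 0.03 ± 0.101 (SE, edgeR adjusted p = 0.929, two-sided exact permutation p = 0.758), whose sign turned with the covariate (-0.16) and in the fits without C1, C4 or A2 (lowest -0.01). Irf1, the factor most tied to interferon gamma, was 34.3 ± 3.83 CPM among controls (SD, n = 6) against 36.6 ± 2.87 CPM among AZ6983 mice (SD, n = 6).

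Isg15 is the ubiquitin-like protein that marks others during the response, and Usp18 the protease that removes it. Isg15 was 2.68, 3.40, 4.83, 3.24, 3.12 and 4.11 CPM in controls and 3.45, 2.70, 3.45, 4.50, 2.82 and 1.75 CPM in AZ6983 mice. C3 was again the highest and A6 the lowest, and the log2 fold change of -0.19 ± 0.213 (SE, edgeR adjusted p = 0.749, two-sided exact permutation p = 0.357) was within the spread between mice. It was -0.07 without A6, -0.10 without C3, -0.33 without A4 and -0.04 with the covariate. Usp18 was 6.24 ± 1.71 CPM among controls (SD, n = 6) against 5.77 ± 1.11 CPM among AZ6983 mice (SD, n = 6).

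None of the 5 OAS genes, 5 sensors or 6 GTPases was at an unadjusted p under 0.05. The OAS family is named for enzymes that make the messenger that activates RNase L. The log2 fold changes were -0.11 for Oas1a, -0.10 for both Oasl1 and Oasl2, 0.13 for Oas2 and 0.39 for Oas3. Oas3 was 2.25 ± 0.697 CPM among controls (SD, n = 6) against 2.95 ± 0.899 CPM among AZ6983 mice (SD, n = 6). The sensors recognise viral nucleic acid in the cytosol, among them Ddx58 (RIG-I) and Ifih1 (MDA5). Dhx58, their relative, had the largest difference, from 5.32 ± 1.14 CPM (SD, n = 6) to 4.55 ± 0.466 CPM (SD, n = 6), with a log2 fold change of -0.23 ± 0.150 (SE, edgeR adjusted p = 0.585), and those of Zbp1, Ifih1, Ddx58 and Ddx60 were -0.12, -0.07, 0.03 and 0.06. The guanylate-binding proteins and immunity-related GTPases were lower in 5 of 6 genes, with log2 fold changes of -0.26 for Gbp3, -0.20 for Iigp1, -0.12 for Gbp7, -0.10 for Irgm1 and -0.06 for Gbp2, and Igtp was the exception at 0.09.

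Across the 12 mice the genes varied together. Over the 741 pairs of the 39 genes the median Pearson r of log2 CPM was 0.403, and 40.2% of pairs exceeded 0.5, where the median over all 125714296 pairs of genes tested was -0.002 and 10.6% exceeded 0.5. With the group means taken off the median was 0.443. Pairs within a role had a median r of 0.504 and pairs between roles 0.386. The IFIT genes were closest (median 0.824 over 6 pairs, from 0.526 to 0.936). Within the 6 controls and the 6 AZ6983 mice r was 0.992 and 0.113 for Ifit3 with Ifit1. It was 0.987 and 0.459 for Ifit3 with Ifit3b, and 0.680 and 0.703 for Ifit2 with Ifit3. Without C3 and C5, r over the remaining mice was 0.624, 0.743 and 0.541 for these pairs in that order. Each gene was also set against the mean of the other 38: 27 had an r over 0.5, led by Oasl2 (0.933), Ifih1 (0.887) and Ifit1 (0.862), and 9 lay between 0 and 0.5. The 3 with an r below 0 were Rsad2 (-0.21), Ifitm2 (-0.21) and Ifitm1 (-0.32). These correlations rest on the same 12 libraries and on shared depth, and are a description.

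The controls C3 and C4 marked the ends of this common variation. When each gene was scaled over the 12 mice, the mean z-score of the 39 genes was 1.04 in C3 and -1.07 in C4, and the other controls were at -0.41 (C1), 0.66 (C2), 0.44 (C5) and 0.38 (C6). The AZ6983 mice lay between -0.51 (A6) and 0.24 (A4). C3 was the highest mouse for 18 of the 39 genes and C4 the lowest for 18, and no AZ6983 mouse was the highest for more than 3. Without C3 and C4 the median r over member pairs was 0.281 in the remaining 10 mice, and 25.9% of pairs exceeded 0.5, against 12.8% of all pairs.

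**Figure D4:**
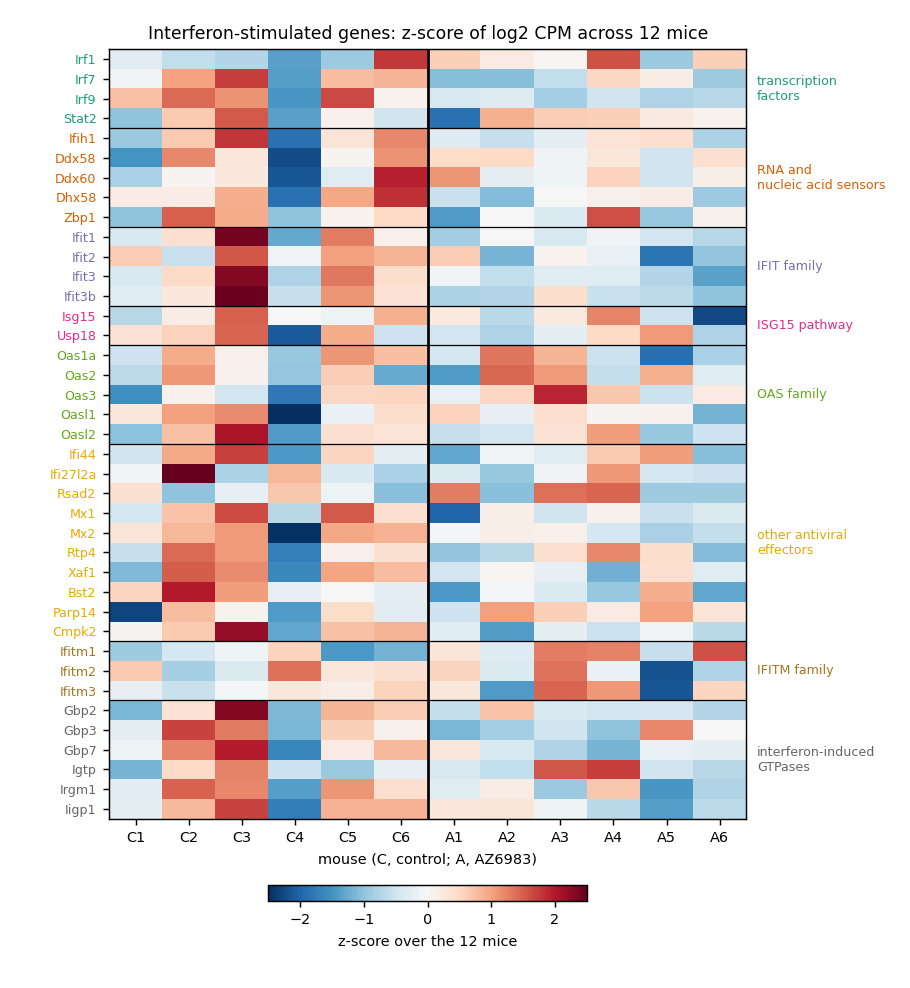
Z-score of log2 CPM (colour, scaled over the 12 mice) for each of the 39 interferon-stimulated genes (rows, by role) in each mouse (columns; C, control; A, AZ6983). C3 is red and C4 blue over most rows, with mean z-scores of 1.04 and -1.07. The rows of Rsad2, Ifi27l2a, Irf1 and the IFITM genes are among those that follow another order.

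The variation shared by the genes was seen within the controls more than within the AZ6983 mice. Among the 6 controls the median r over the 741 pairs was 0.622 and 60.2% of pairs exceeded 0.5 (18.3% of all gene pairs), and among the 6 AZ6983 mice the median was 0.136 and 21.1% exceeded 0.5 (19.5% of all gene pairs). The SD of log2 CPM was larger in controls than in AZ6983 mice for 28 of the 39 genes (71.8%), where this held for 35.6% of all genes tested. The median SD was 0.299 in controls and 0.205 in AZ6983 mice, whereas over all genes it was 0.178 and 0.229. Without C4 the number with the larger SD in controls was 20 of 39 (51.3%, against 36.3% of all genes), and without both C3 and C4 it was 18 (46.2%, against 38.0%). The widest contrasts were Irf9, with an SD of 0.120 in controls and 0.0227 in AZ6983 mice, and Ifit1, with 0.665 and 0.176. These comparisons of spread and of correlation were made after seeing the data, and the difference between the groups was not tested.

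**Figure D5:**
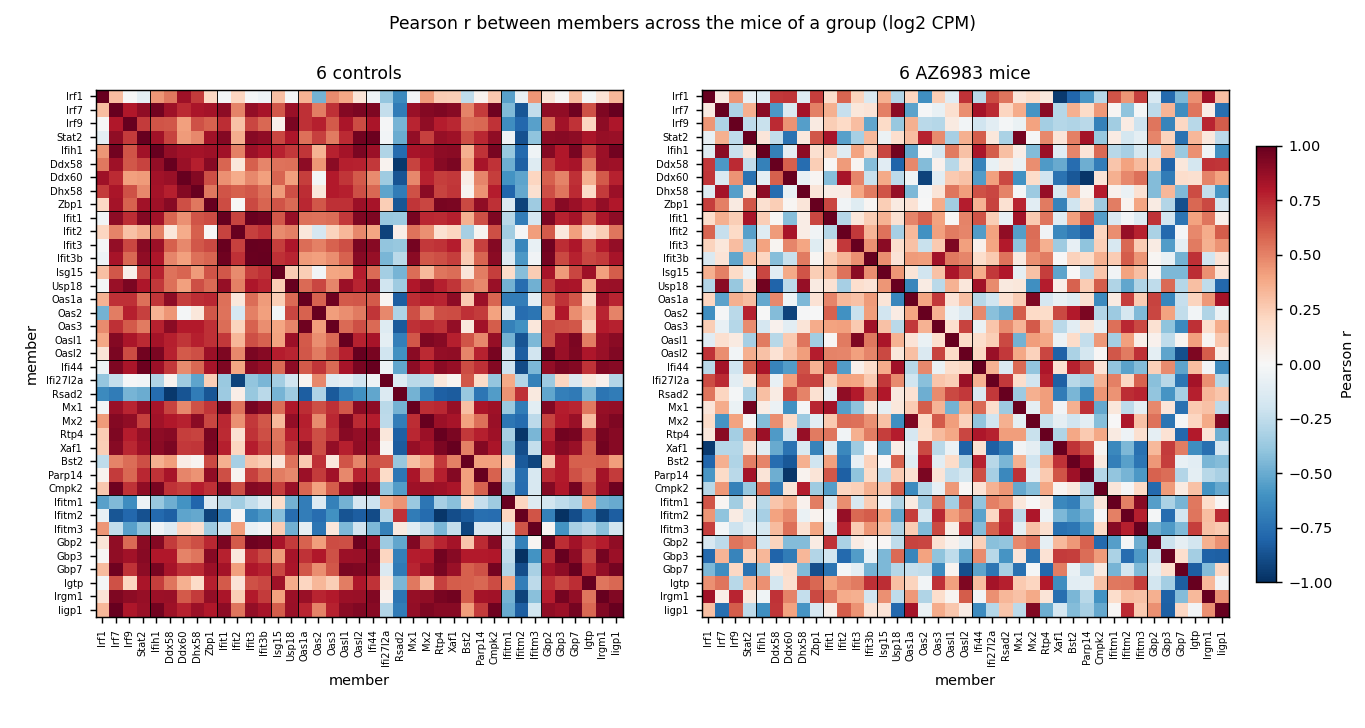
Pearson r (colour) between each pair of the 39 interferon-stimulated genes (both axes, by role) over the 6 controls (left) and the 6 AZ6983 mice (right), with the diagonal at 1. The control panel is red over most of its area (median r 0.622), with blue bands at Rsad2 and the IFITM genes, and the AZ6983 panel is mixed (median r 0.136).

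Isg15 was taken as the index gene and correlated with 7 partners over the 12 mice. The largest correlations were those with Oasl2 (r = 0.667, rho = 0.615; permutation test, two-sided, p = 0.0166 and 0.0361) and Ifit3 (r = 0.666, rho = 0.671; p = 0.0208 and 0.0205, permutation test), both with p = 0.0727 for r after Benjamini-Hochberg adjustment over the 7 pairs. Irf7 followed (r = 0.579, adjusted permutation p = 0.106), and Gbp2 (0.483), Ifit1 (0.480) and Usp18 (0.327) were lower, so that no pair passed an adjusted p of 0.05. Without C3 and A6, the mice farthest from the median of Isg15, r was 0.681 for Oasl2 but 0.258 for Ifit3, which therefore rests on those mice. Within the 6 controls r was 0.783 with Oasl2 and 0.688 with Ifit3, and within the 6 AZ6983 mice it was 0.661 and 0.900.

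Outside the 39 genes, those most like their mean z-score, of 12911 candidates with a mean count of at least 50, were Gm12250 (r = 0.850), Gprasp2 (0.834), Mboat2 (0.830), Mgat3 (0.808), Ankrd13d (0.799), H2-T24 (0.798), Wbp4 (0.796), Gprasp1 (0.794), Parp12 (0.774) and Gmfb (0.772), each over 12 mice. Gm12250 encodes the interferon-induced GTPase Irgb10, Parp12 is itself induced by interferon, and H2-T24 is a non-classical histocompatibility gene. Gm12250 was highest in C3, at 3.34 CPM, and lowest in C4, at 1.71 CPM.

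The rest of the pathway was read from lists of genes grouped by role. Of 21 interferon ligands only Ifng had a row, with 0 to 2 counts per mouse, and the other 20 were not analysed here. All 6 receptor subunits were tested, none at an unadjusted p under 0.05, and they summed to 262 to 289 CPM in controls and 265 to 297 CPM in AZ6983 mice. Ifnar1 was 55.7 ± 1.18 CPM among controls (SD, n = 6) against 57.9 ± 1.18 CPM among AZ6983 mice (SD, n = 6). The kinases Jak1, Jak2 and Tyk2 had log2 fold changes of 0.09, 0.03 and 0.06, none at that level. Of 14 sensors and adaptors upstream of interferon none was at an unadjusted p under 0.05. A list headed restraint of the response had 9 tested genes, among them the interferon-induced Isg20 and Ifi35. Of these 9, 1 was higher at that level (11.1%, against 7.38% of all genes tested). It was the nucleotide hydrolase Samhd1 (log2 fold change 0.14, edgeR adjusted p = 0.483).

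A list of other interferon-induced genes, which shared Ifi35 and Isg20 with the list above, had 40 tested genes. At an unadjusted p under 0.05, 1 of these 40 was lower (2.5%, against 2.81% of all genes tested). At that level 2 were higher (5%, against 7.38%). The median log2 fold change of the 40 was -0.01, beside -0.11 for the 39. Phf11d was the lower gene (log2 fold change -0.25 ± 0.0980, SE, edgeR adjusted p = 0.450). The higher genes were Psmb9, a subunit of the immunoproteasome (0.41 ± 0.175, SE, edgeR adjusted p = 0.472), and Ifitm6 (0.93 ± 0.238, SE, edgeR adjusted p = 0.447, DESeq2 adjusted p = 0.0827), a relative of Ifitm1 with means of 1.08 CPM among controls against 2.07 CPM among AZ6983 mice. Ifitm6 was the 1 gene of these 40 that passed 10% FDR in DESeq2. In A4, the library with thymocyte genes, Psmb9 was 14.1 CPM and in the other mice at most 9.37 CPM.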

How the data were processed

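Stranded, ribosome-depleted total RNA of 12 thoracic aortas was sequenced, and the authors deposited counts per gene symbol without normalization (submitters' processing notes: CASAVA 1.8.2, STAR 2.5.2b, HTSeq 0.6.1p1, mm10). Reads of repeated sequence were set aside by the authors, which lowers counts of near-identical genes. Reads assigned to no gene (8.02% to 14.9% per library), on several places (18.1% to 23.2%) or on several genes (0.606% to 0.698%) stayed out of library sizes and tests. The 23810036 to 35864666 counts per mouse set the precision, so low counts are given. Groups came from the labels. Column names matched 11 mice in full, and A1 by 3 of the 4 digits of its number. No libraries were copies (chi-square per degree of freedom 9.34 to 171 over 66 pairs). No batch, litter or pairing is named.

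edgeR 4.0.16 in R 4.3.3 (TMM, filterByExpr, quasi-likelihood test) was fitted on all genes with Benjamini-Hochberg adjustment and a 10% FDR. Log2 CPM used a prior count of 2. SE was taken from the F statistic (fold change on the log2 scale over the root of F). The edgeR adjusted p-values cover 15857 genes. Exact permutation tests ran over 924 assignments (smallest p 0.00216), and correlation tests used 100000 permutations. Alternatives were DESeq2 1.42.0, limma-voom (limma 3.58.1), other scalings and filters, 5% FDR, a covariate for the share of reads assigned to no gene, and each mouse left out. Steps were tested on simulated data. GENCODE M21 gave positions, lengths and 75-base windows, and RefSeq (GRCm38.p6) the promoters. The members, gene lists and tests were chosen with earlier results of these data known. Described singly were the 6 genes with the smallest p, the 4 with the widest range among those with a mean count of at least 50, the 2 with the highest CPM, Isg15, Irf7 and Stat2. The rule overlaps, and Irf9, Rsad2 and other genes given with values were added after theirs were seen. Marker lists are reported where a member moved with them or the tissue was checked. The erythroid list and the comparison of spread within groups were added once these values were known. Values of 2 genes, among them 1 of the 7 partners of Isg15, are not reported here.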

Additional observations from a re-analysis of the deposited data

Results flagged for a closer look

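In 7 of 78 groups of 6 mice (39 genes, each group taken alone) 1 mouse stood apart by Dixon's criterion on log2 CPM, where chance gives about 3.9 of 78. Among controls C6 was high for Irf1 (5.39), and C4 was low for Oasl1 (-0.43) and for Mx2 (0.53). Among AZ6983 mice A3 was high for Ifit3b (2.37), A2 was high for Gbp2 (5.66), and A1 was low for Stat2 (4.14) and for Mx1 (-0.44). Oasl1 had 18 counts in C4 and Mx1 18 in A1, so these low values rest on few reads.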

How the results depend on the processing

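The number of genes past 10% FDR over the whole table was 0, but 92 with DESeq2 on every gene, 84 with DESeq2 on the genes edgeR tested, 2 with library totals only and 0 to 27 over the fits without 1 mouse (27 without A5), and none of the 39 genes was among them under these settings. The 7 lower genes at an unadjusted p under 0.05 became 4 with limma-voom, 4 with a mean count of at least 50, 4 with a covariate for the unassigned share, and 2 (without C3) to 14 (without C4) over the fits without 1 mouse. The 1 higher gene became 1 to 2. Ifitm2 turned to 0.0527 and Stat2 to -0.155 with that covariate, and Stat2 ran from -0.0135 to 0.0910 over the fits without 1 mouse. The r of Isg15 with Oasl2 was 0.540 to 0.797 over the sets without 1 mouse, the latter, without A6, at an adjusted permutation p of 0.0247. The causes were not tested. The median r over member pairs was 0.326 (without C4) to 0.431 when 1 mouse was left out, and 0.281 without both C3 and C4. The sign also turned over the fits without 1 mouse for Ddx58 (-0.01 to 0.05), Ddx60 (-0.05 to 0.25) and Ifitm3 (-0.04 to 0.03). Other than Ifitm2 and Stat2, the genes chosen by rule for single description kept their sign, and none of them passed 10% FDR, under the alternatives run. Low counts limit Oasl1, Mx1, Mx2 and Oas3. No paired analysis was possible because the labels give no shared replicate numbers.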
